A study of Mus musculus with 8 samples.

Results

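The AP-1 and immediate-early transcription factors described here are 10 genes: Fos, Fosb, Fosl2, Jun, Junb, Jund, Atf3, Batf3, Jdp2 and Egr1. They were taken by gene symbol, and every probe that the platform annotation assigns to them was used, 14 of the 45281 probes on the array. Of these probes 10 passed the filter on low values, detection at p under 0.01 on 2 arrays or more, and they read 9 of the 10 genes. Batf3 passed this filter only through the arrays labelled Bcl6 knockout and Egr1 through every group except unstimulated wild type, so differences of these genes between such groups were in part a condition of their being tested. Fosb was detected on no array, with log2 signals of 4.49 to 5.02.

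Total RNA was measured on single-colour Illumina bead arrays in primary macrophages grown from the bone marrow of 10-week-old male c57Bl6/J mice, either wild type or Bcl6-/- on that background. Bcl6 is a zinc-finger repressor of transcription. Cells of each genotype were left unstimulated or given LPS, the bacterial lipid sensed by Tlr4, which gave 4 groups that shared age, sex, strain background and cell type. The sources used here do not give the LPS dose or duration, the deleted part of Bcl6 or whether animals were pooled. Each group had 2 arrays, which the labels call technical replicates, so p-values cover only the spread between such arrays and not that between mice or cultures.

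AP-1 is a dimer of basic leucine-zipper proteins. Fos proteins need a Jun partner to bind DNA, whereas Jun proteins can also pair with each other, and the smaller factors Batf3 and Jdp2 and the ATF-family protein Atf3 join the same network and can displace activating pairs. Fos, Jun, Atf3 and the zinc-finger factor Egr1 are classic immediate-early genes, whose transcripts rise soon after a stimulus without new protein synthesis and then fall back. In macrophages, Toll-like receptors reach them through MAP kinases and NF-kappaB.

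Arrays had 11857 to 13209 probes above background, raw medians of 112.1 to 130.2 and, after normalization, correlations across 8306 tested genes of 0.993 to 0.995 within a group and 0.882 to 0.953 between groups, which are across genes and not independent replicates. The Bcl6 probe did not bear out the genotype labels: its log2 signal was 10.95 and 10.92 in unstimulated wild type, 10.75 and 10.99 in wild type with LPS, 12.60 and 12.33 in the unstimulated labelled knockout, and 9.92 and 9.93 in the labelled knockout with LPS. Its place relative to the deleted part is not known here, so it does not settle the genotype, and directions below refer to arrays labelled knockout. Of 10 macrophage markers 8 were tested, and each of these was detected on all 8 arrays. The macrophage marker Marco, also on the array, was detected on no array and so was not tested. Granulocyte markers, 10 of 10 tested, had a summed signal of 23400 to 26300 in unstimulated wild type, 19100 on both wild-type LPS arrays, 8980 to 9810 in the unstimulated labelled knockout and 10600 to 11300 in the labelled knockout with LPS. Of 7 T and NK cell markers on the array and 8 dendritic cell markers, 0 were detected on any array. In RNA from a whole culture, fewer cells of a type and less RNA per cell cannot be told apart.

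Signals below are normalized log2 values in the order of replicates 1 and 2. Changes are log2 differences ± the standard error of a limma fit to all 8 arrays with n = 2 technical replicates a group, and p-values are limma's, adjusted by Benjamini-Hochberg over 8306 genes. A gene is said to have risen, fallen or changed where the adjusted p was under 0.05 and the change at least 2-fold. Where both arrays of a group were below background the change is given as at least N-fold, set against the lowest detected signal of those arrays. The median of all tested genes changed by -0.12 with LPS in either genotype, so that values relative to it are 0.12 higher than those given.

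**Figure D1:**
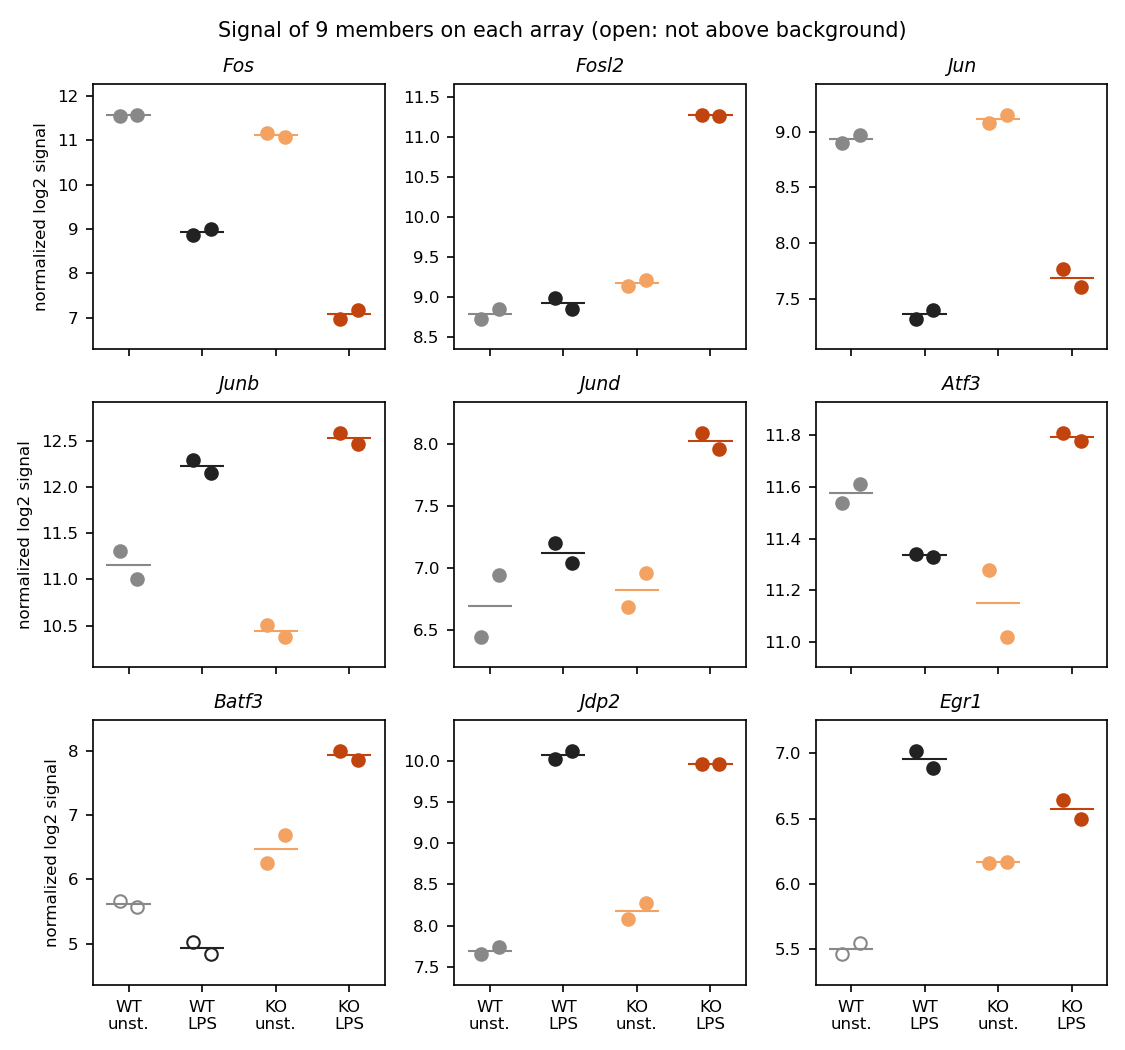
Normalized log2 signal of 9 genes on each of the 8 arrays. Each point is 1 array, bars are the means of 2 technical replicate arrays and open points are arrays on which the probe was not above background, with WT for wild type and KO for labelled knockout. The vertical scale differs between panels. The Fosl2 and Batf3 panels stand highest on the labelled-knockout LPS arrays, at 11.28 and 11.27 for Fosl2 and at 8.01 and 7.86 for Batf3, whereas Fos was lowest there, at 6.97 and 7.17.

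Fos encodes c-Fos, the founding partner of Jun proteins in AP-1. Its log2 signal was 11.56 and 11.57 in unstimulated wild type and 8.87 and 9.0 with LPS. On labelled-knockout arrays the signal was 11.16 and 11.07, against 6.97 and 7.17 with LPS. The 4 groups were separate, and their order from high to low was unstimulated wild type, unstimulated labelled knockout, wild type with LPS and labelled knockout with LPS. With LPS, Fos fell by 2.63 ± 0.12 in wild type, to a level 6.19-fold lower (adjusted p = 6.3e-07). Among labelled knockouts it fell by 4.05 ± 0.12, to a level 16.5-fold lower (adjusted p = 7.17e-08). The difference between these effects was -1.42 ± 0.16 and passed the test (adjusted p = 0.00218). Without background correction that difference was -0.90, under 2-fold. From the authors' processed values the LPS changes were -2.35 in wild type and -3.26 in the labelled knockout. Between genotypes Fos was 3.64-fold lower in the labelled knockout under LPS, at -1.86 ± 0.12 (adjusted p = 6.25e-06), or -1.33 without background correction. In unstimulated cells the genotypes differed by -0.45 ± 0.12 (adjusted p = 0.017), short of 2-fold.

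The promoter of Fos, the gene that fell furthest of the 9, is shown for the motifs in the 250 bases before its start. This window is chr12:85473640-85473889 on the plus strand of RefSeq's GRCm38.p6, and capitals mark a kappaB-type match at position -214 and the TGACG core of a cAMP response element at -129 and -66, counted from the start.
Fos: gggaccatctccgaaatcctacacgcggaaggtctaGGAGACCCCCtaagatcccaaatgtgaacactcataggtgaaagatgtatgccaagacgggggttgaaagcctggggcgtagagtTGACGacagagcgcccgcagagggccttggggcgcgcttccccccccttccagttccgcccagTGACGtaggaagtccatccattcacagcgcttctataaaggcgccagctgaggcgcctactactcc
Windows were searched on both strands for TGANTCA (AP-1 site), TGACGTCA (cAMP response element), its core TGACG, the CArG box bound by serum response factor, the kappaB site and TTCCNNGAA (Bcl6-type site). TGACG lies within TGACGTCA, and it was added to the search after the sequences had been seen. Of 32851 RefSeq windows of 250 bases, 6.75% held the AP-1 site, 1.55% the full cAMP response element, 17.8% its core, 1.47% the CArG box, 7.25% the kappaB site and 4.06% the Bcl6-type site. Such matches describe the letters of these windows and are not evidence of binding. Windows were looked up for the 9 genes other than Egr1, Fosb included. Of these 9 genes, 0 held TGANTCA, TGACGTCA or a CArG box in their windows, and those of Jun and Jund held none of the 6 motifs. Fosb held TGACG at -60 and a kappaB-type match at -188, Atf3 the core on the other strand at -7, and the 3 windows of Jdp2 TGACG at -114 and a kappaB-type match at -226.

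Fosl2, which encodes the Fos-family protein Fra-2, rose with LPS in the labelled knockout, where Fos fell. The log2 signal was 8.73 and 8.85 in unstimulated wild type, 8.99 and 8.86 in wild type with LPS, and 9.14 and 9.22 in the unstimulated labelled knockout. On the labelled-knockout LPS arrays it was 11.28 and 11.27, above each of the other 6 arrays. LPS raised Fosl2 4.28-fold in the labelled knockout, by 2.10 ± 0.11 (adjusted p = 1.27e-06). The wild-type LPS value was 0.13 ± 0.11, with a 95% interval of -0.11 to 0.38 and adjusted p = 0.334. The LPS effects differed by 1.96 ± 0.15 (adjusted p = 0.000273). Under LPS, Fosl2 was 5.10-fold higher in the labelled knockout than in wild type, at 2.35 ± 0.11 (adjusted p = 1e-06). The unstimulated genotypes differed by 0.39 ± 0.11, short of 2-fold. The other 2 Fosl2 probes were detected on 0 arrays, so the gene rests on 1 probe.

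The Fosl2 window is shown because it holds a pair of overlapping kappaB-type matches, at -182 and -181, as 1 run of capitals. It is chr5:32136222-32136471 on the plus strand of GRCm38.p6, from RefSeq.
Fosl2: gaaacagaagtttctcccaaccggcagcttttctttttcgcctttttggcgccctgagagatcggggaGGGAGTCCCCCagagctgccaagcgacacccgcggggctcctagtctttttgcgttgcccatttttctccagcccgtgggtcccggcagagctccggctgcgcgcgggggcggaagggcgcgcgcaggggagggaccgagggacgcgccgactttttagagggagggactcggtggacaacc

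Jun, the c-Jun partner of Fos, fell with LPS in either genotype. Its wild-type log2 signal was 8.90 and 8.97 when unstimulated and 7.32 and 7.40 with LPS. The corresponding labelled-knockout values were 9.08 and 9.15, then 7.77 and 7.61. The LPS arrays of each genotype thus lay below every unstimulated array. Jun fell by 1.57 ± 0.11 in wild type, to a level 2.98-fold lower (adjusted p = 7.97e-06), and fell by 1.43 ± 0.11 among labelled knockouts, to a level 2.69-fold lower (adjusted p = 1.38e-05). These effects differed by 0.15 ± 0.16, with a 95% interval of -0.21 to 0.50 and adjusted p = 0.602, and with median scaling by -0.066, or 0.15 relative to the median of all genes. Between genotypes, Jun differed by 0.18 ± 0.11 without LPS and 0.33 ± 0.11 with it, both under 2-fold.

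Junb, the Jun-family member known to be induced by LPS in macrophages, rose in either genotype. The log2 signal went from 11.31 and 11.01 to 12.30 and 12.16 with LPS in wild type, and from 10.51 and 10.38 to 12.59 and 12.47 in the labelled knockout. Unstimulated labelled-knockout arrays were the lowest and LPS arrays of that genotype the highest, and the LPS arrays of the genotypes lay close together. The rise was 2.09-fold in wild type (1.07 ± 0.13, adjusted p = 0.000244) and 4.24-fold in the labelled knockout (2.08 ± 0.13, adjusted p = 4.07e-06). The difference of 1.02 ± 0.19 (adjusted p = 0.0146) was just past 2-fold. It was 0.87 without replicate 1 of unstimulated wild type, and with median scaling it was 0.91, or 1.13 against the all-gene median of -0.21. The wild-type rise fell short of 2-fold, at 0.92, without replicate 2 of the unstimulated arrays. The genotypes differed by -0.72 ± 0.13 without LPS (adjusted p = 0.00357) and by 0.30 ± 0.13 with it (adjusted p = 0.0965), neither reaching 2-fold. A further Junb probe, matched to another transcript, was detected on 0 arrays.

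The Junb window, chr8:84978749-84978998 on the minus strand of GRCm38.p6 from RefSeq, is shown beside that of Fos because it too holds the TGACG core, in capitals, at -106.
Junb: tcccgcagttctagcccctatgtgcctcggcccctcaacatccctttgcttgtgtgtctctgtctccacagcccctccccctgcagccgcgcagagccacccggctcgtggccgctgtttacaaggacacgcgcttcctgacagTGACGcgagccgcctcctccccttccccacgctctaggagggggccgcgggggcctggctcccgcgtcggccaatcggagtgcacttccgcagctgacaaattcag

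Jund, the Jun protein usually present in resting cells, had log2 signals of 6.45 and 6.95 in unstimulated wild type and 7.20 and 7.04 with LPS. Labelled-knockout signals were 6.69 and 6.96 when unstimulated and 8.09 and 7.96 with LPS. The unstimulated arrays of the genotypes overlapped, the LPS arrays of the labelled knockout lay above every other array, and the replicates of unstimulated wild type were 0.50 apart. LPS raised Jund 2.30-fold in the labelled knockout, by 1.20 ± 0.18 (adjusted p = 0.000581). With median scaling this was 0.90, or 1.19 against the all-gene median of -0.28, and without background correction it was 0.75. The wild-type LPS value was 0.42 ± 0.18, with a 95% interval of 0.02 to 0.82 and adjusted p = 0.0783. It was 0.17 without replicate 1 of the unstimulated wild-type arrays and 0.67 without replicate 2. The difference of the effects, 0.78 ± 0.25, did not pass the test (adjusted p = 0.0948), but without replicate 1 of unstimulated wild type it was 1.03 (adjusted p = 0.041) and was called. Under LPS the genotypes differed by 0.91 ± 0.18 (adjusted p = 0.00346), short of 2-fold.

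Atf3, a repressor known in mouse macrophages for restraining cytokine genes induced through Tlr4, stayed within 2-fold across the 4 groups. Its signals were 11.54 and 11.61 in unstimulated wild type, 11.34 and 11.33 in wild type with LPS, 11.28 and 11.02 in the unstimulated labelled knockout, and 11.81 and 11.78 in the labelled knockout with LPS. Fitted to all 8 arrays, Atf3 did not reach 2-fold in any of the 5 comparisons. With LPS its change was -0.24 ± 0.12 in wild type (adjusted p = 0.123) and 0.65 ± 0.12 in the labelled knockout (adjusted p = 0.00201). These effects, of opposite sign, differed by 0.89 ± 0.17 (adjusted p = 0.0157), short of 2-fold, and without replicate 1 of the unstimulated labelled knockout by 1.02 (adjusted p = 0.0207), which was called. With median scaling the wild-type value was -0.095, or -0.01 relative to the median of all genes.

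Batf3, a small AP-1 factor without an activation domain of its own, is best known in mouse for the development of cross-presenting dendritic cells. Its brighter probe was above background on the 4 arrays labelled knockout and on no wild-type array. The log2 signal there was 6.25 and 6.70 when unstimulated and 8.01 and 7.86 with LPS. Wild-type arrays gave 5.66 and 5.57 when unstimulated and 5.02 and 4.83 with LPS, each below background. LPS raised Batf3 2.75-fold in the labelled knockout, by 1.46 ± 0.16 (adjusted p = 0.000103). That change was 0.86 without background correction and 0.89 from the authors' processed values, under 2-fold in each. Given LPS, labelled-knockout cells held at least 4.17-fold more Batf3 signal than wild type, by a fitted 3.01 ± 0.16 (adjusted p = 2.25e-06), or 1.5 without background correction. Without LPS it was at least 1.51-fold higher (adjusted p = 0.00353), and was not called. Leaving out replicate 1 of the unstimulated labelled knockout gave a fitted change of 1.08, which was called. No fold is given for LPS in wild type, where both groups were below background. The fitted difference of the LPS effects was 2.15 ± 0.22 (adjusted p = 0.00122), and 1.15 without background correction.

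The other Batf3 probe gave smaller values. Its log2 signal was 6.0 and 6.27, and 6.63 and 6.42 with LPS, in the labelled knockout, and it was below background on the 4 wild-type arrays. With LPS the labelled knockout exceeded wild type at least 1.57-fold (adjusted p = 8.98e-05 over the kept probes). The LPS effect in the labelled knockout was 0.39 ± 0.14 by this probe (adjusted p = 0.0529), so the probes disagreed on that call, and the mean over both probes was 0.92. The probes also disagreed on the difference of the LPS effects, which was 0.76 ± 0.20 by this probe (adjusted p = 0.0545) and not called. Each of the 8 dendritic cell markers looked for, Zbtb46, Flt3, Xcr1 and Clec9a among them, was below background on every array.

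The Batf3 window is chr1:191098164-191098413 on the plus strand of GRCm38.p6, from RefSeq. It is shown because it alone among the windows of the 9 genes other than Egr1 held a Bcl6-type match, TTCCACGAA at -239, in capitals. No peak or binding data were part of the measurements.
Batf3: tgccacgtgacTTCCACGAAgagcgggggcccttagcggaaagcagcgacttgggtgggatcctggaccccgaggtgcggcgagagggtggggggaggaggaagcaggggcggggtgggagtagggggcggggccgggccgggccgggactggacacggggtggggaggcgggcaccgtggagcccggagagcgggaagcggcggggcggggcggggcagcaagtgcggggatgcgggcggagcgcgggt

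Jdp2, a repressor that dimerises with Jun and is needed for osteoclast formation in mouse, was raised by LPS in either genotype. Its log2 signal went from 7.65 and 7.74 to 10.02 and 10.12 in wild type and from 8.08 and 8.27 to 9.96 and 9.96 in the labelled knockout. Each LPS array thus lay above each unstimulated array. Jdp2 was 5.2-fold higher with LPS in wild type (2.38 ± 0.11, adjusted p = 9.3e-07) and 3.43-fold higher in the labelled knockout (1.78 ± 0.11, adjusted p = 4.05e-06). The effects differed by -0.60 ± 0.16 (adjusted p = 0.056). Genotypes differed by 0.48 ± 0.11 without LPS (adjusted p = 0.0108), short of 2-fold, and by -0.11 ± 0.11 with LPS, with a 95% interval of -0.37 to 0.14.

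Egr1, the zinc-finger immediate-early factor and the only listed gene outside the leucine-zipper network, had signals near background. They were 5.46 and 5.55 in unstimulated wild type, below background, and 7.02 and 6.89 with LPS. Labelled-knockout signals were 6.16 and 6.17 when unstimulated and 6.64 and 6.50 with LPS. LPS raised Egr1 at least 2.10-fold in wild type, where the fitted change was 1.45 ± 0.11 (adjusted p = 1.39e-05), and 0.63 without background correction. The LPS value in the labelled knockout was 0.40 ± 0.11 (adjusted p = 0.0159), short of 2-fold. The fitted difference of -1.04 ± 0.16 (adjusted p = 0.00639) was -0.45 without background correction, and leaving out replicate 1 of wild type with LPS or replicate 2 of the labelled knockout with LPS gave -0.98 and -0.97, under 2-fold. Without LPS, the labelled knockout exceeded wild type at least 1.22-fold for Egr1 (adjusted p = 0.00218), a difference that was not called. Under LPS the genotypes differed by -0.38 ± 0.11 (adjusted p = 0.022), short of 2-fold.

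Counted over the 9 genes tested, LPS in wild type raised 3 (Junb, Jdp2 and Egr1) and lowered 2 (Fos and Jun). Of the 8306 genes tested, 625 rose and 540 fell, which is 7.52% and 6.50%. The median log2 change of the 9 was 0.13, beside -0.12 over all genes. In the labelled knockout LPS raised 5 (Fosl2, Junb, Jund, Batf3 and Jdp2) and lowered the same 2, Fos and Jun. Over all genes 7.49% rose and 7.36% fell, 622 and 611 in number, and with median scaling 496 rose and 939 fell. There the median of the 9 was 1.20, beside -0.12 over all genes. Jdp2, Junb, Fos and Jun were thus called in the same direction in either genotype.

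**Figure D2:**
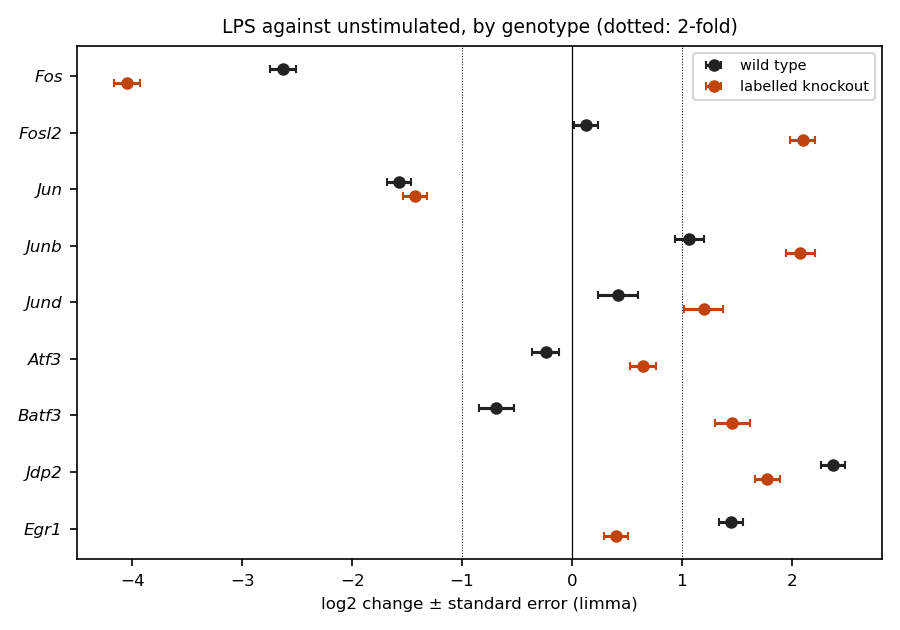
Log2 change with LPS for the 9 genes tested, by genotype. Points are limma estimates, bars their standard errors (n = 2 technical replicate arrays a group) and dotted lines a 2-fold change. Batf3 in wild type and Egr1 in wild type involve arrays below background and are drawn as fitted. Fosl2 lies near 0 in wild type, at 0.13, and at 2.10 in the labelled knockout, whereas the Jun estimates of -1.57 and -1.43 lie side by side.

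As fitted, the LPS effect differed between genotypes by over 2-fold for 5 of the 9 genes. It was higher in the labelled knockout for 3 (Fosl2, Junb and Batf3) and lower for 2 (Fos and Egr1). For Batf3 and Egr1 the wild-type LPS effect involved arrays below background, so their differences cannot be read as measured folds. Over all genes 163 differed upward and 155 downward, 1.96% and 1.87%, and with median scaling 97 and 316. The median of the 9 was 0.78, beside -0.01 over all genes. Fos and Fosl2 had opposite signs in this contrast, -1.42 and 1.96. Of the 5 calls, those of Fosl2 and of the brighter Batf3 probe also held without background correction, where the count was 2, but the other Batf3 probe was not called.

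**Figure D3:**
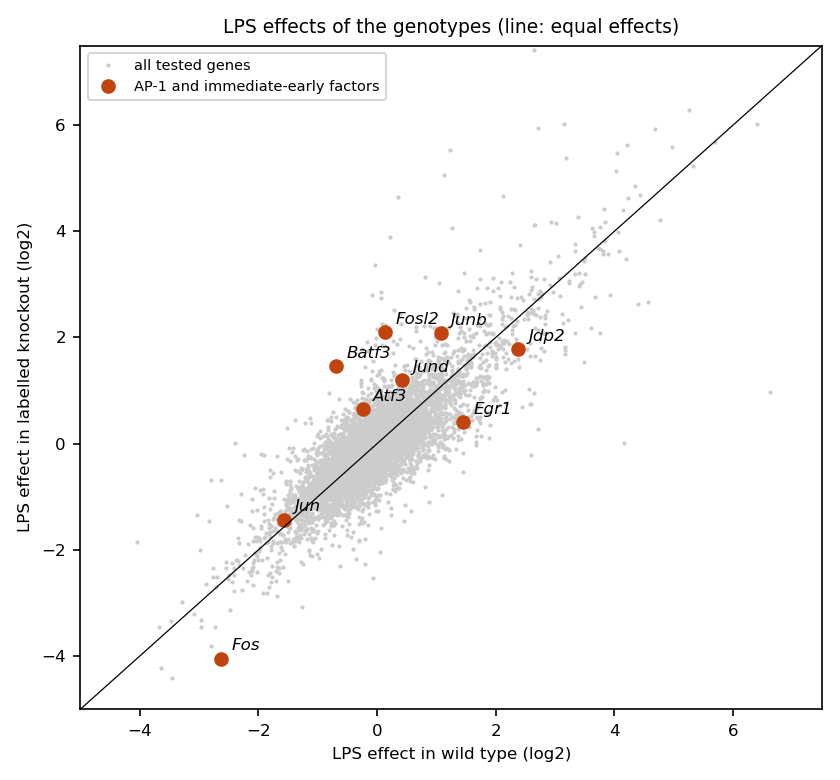
Log2 change with LPS in wild type (horizontal) against that in the labelled knockout (vertical) for the 8306 genes tested, with 9 named genes in colour and a line of equal effects. The axes share no arrays. Fosl2, Junb and Batf3 lie above the line and Fos and Egr1 below it by over 2-fold, and Jun lies beside it. Batf3 and Egr1 are drawn as fitted, and their wild-type values involve arrays below background.

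The knockout comparisons asked how the genotypes differed at a given treatment. Without LPS, 0 of the 9 genes were called by limma in either direction, although 7 had an adjusted p under 0.05 and the same 7 an unadjusted one. The fitted values ran from -0.72 for Junb to 0.86 for Batf3, the latter against arrays below background and with a bound of at least 1.51-fold, with a median of 0.18 beside 0.00 over all genes. Among all 8306, 377 were higher (4.54%) and 329 lower (3.96%). With LPS, 2 of the 9 genes were higher in the labelled knockout (Fosl2 and Batf3) and 1 was lower (Fos), with a median of 0.33 over the 9 beside -0.03 over all genes. The shares over all genes were 6.19% higher and 4.97% lower, 514 and 413 in number. Median scaling gave 318 higher and 769 lower and moved the all-gene median to -0.29. Against it, the median-scaled changes were -1.92 for Fos and 2.42 for Fosl2. Batf3 passed the filter only through arrays labelled knockout, so its call between genotypes was in part a condition of its being tested. With both wild-type LPS arrays below background, no median-scaled change is given for it here, only the bound of at least 4.17-fold. The granulocyte markers moved with the genotype too. Of 10 markers, 8 were lower in the unstimulated labelled knockout, led by the neutrophil granule enzyme Mpo at -2.65 ± 0.20. Elane and Prtn3, both among the 8, passed the filter only through wild-type arrays. Where only genes detected on all 8 arrays were tested, 5 of 6 were lower, beside 217 higher and 179 lower of 6495 genes without LPS. With LPS 3 of the 10 markers were lower and 1 higher. In wild type 2 of them fell with LPS, and for 4 the LPS effect was higher in the labelled knockout. The macrophage marker Aif1 was lower in the labelled knockout, at -2.38 ± 0.11 without LPS. With LPS the value of Cd14 was 1.08 in the labelled knockout and 0.97 in wild type, which differed by 0.11 (adjusted p = 0.744). The part of these markers in the values of the transcription factors was not tested.

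**Figure D4:**
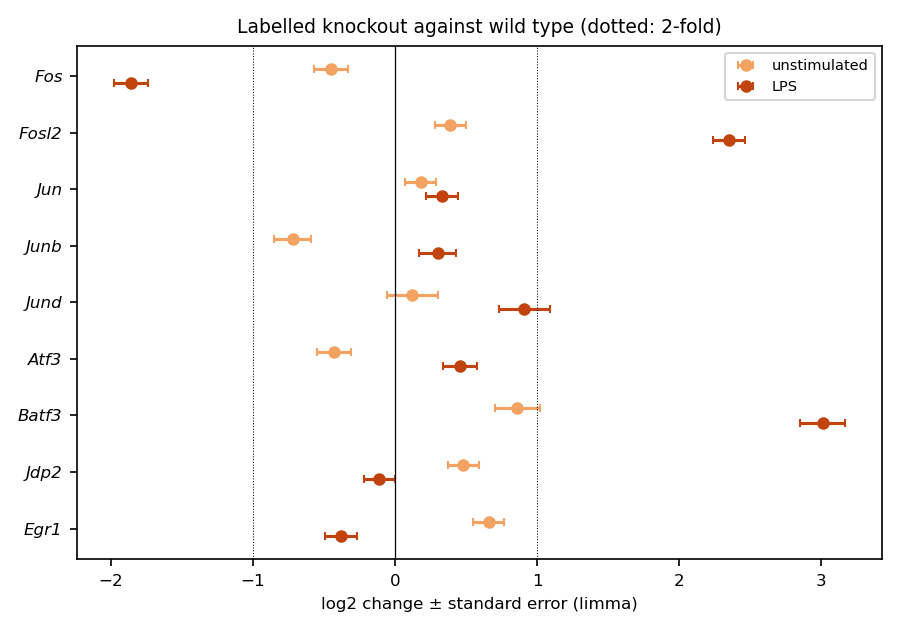
Log2 difference between the labelled knockout and wild type for the 9 genes tested, without and with LPS. Points are limma estimates, bars their standard errors (n = 2 technical replicate arrays a group) and dotted lines a 2-fold change, with Batf3 at either treatment and Egr1 without LPS drawn as fitted. Without LPS every point lies within 2-fold, whereas with LPS Fos, at -1.86, Fosl2, at 2.35, and Batf3, at 3.01, lie outside.

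The genes nearest in pattern were found for the 8 members called at least once, by the Euclidean distance of mean-centred log2 signals over the 8 arrays. Fosl2 lay nearest to Lix1, Flrt3 and Slc20a1, at distances of 0.33, 0.40 and 0.46. The LPS values of Lix1 were -0.01 in wild type and 1.99 in the labelled knockout, beside 0.13 and 2.10 for Fosl2. Jun lay nearest to Ttyh2, Gpr146 and Ski, at 0.31 to 0.33, Jdp2 to Klf7, Gphn and Tlr6, at 0.34 to 0.44, and Egr1 to Oas2, Clec5a and Lpcat2, at 0.36 to 0.38. Jund was nearest to Gpalpp1, Lrch1 and Zfp654, at 0.37 to 0.43, and Junb to Sdc4, Chil1 and Btbd7, at 0.41 to 0.46. Batf3 and Fos had no neighbour as close by this distance, which grows with the size of a change. Batf3 lay 0.65 from Wfdc18, 0.74 from Slc1a2 and 0.86 from Stk38l, and Fos 0.94 from Dnah11, 1.03 from Tmem86a and 1.21 from 6430548M08Rik. Correlations with the neighbours were 0.977 to 0.979 for Batf3 and 0.975 to 0.995 for Fos, beside 0.96 to 0.994 for the other members. None of these neighbours was a member. All points share the same 8 arrays, so the distances are a description.

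Other leucine-zipper factors of the AP-1, ATF, CREB and Maf families numbered 19, of which 12 were tested. The shares over all genes stand beside the counts of this list and of those below. With LPS 7.52% rose and 6.50% fell in wild type, and 7.49% and 7.36% in the labelled knockout. Between genotypes 4.54% were higher and 3.96% lower without LPS, and 6.19% and 4.97% with it. For the difference of the LPS effects they were 1.96% and 1.87%. No list was tested as a set. Of the 12 factors, 5 rose and 0 fell with LPS in wild type, and 3 rose and 0 fell in the labelled knockout. Batf2 rose by 3.41 ± 0.14 and 3.21 ± 0.14. Batf, a small factor of the same subfamily as Batf3, rose by 2.00 ± 0.13 and 1.60 ± 0.13, and it was also higher in the labelled knockout, by 1.92 ± 0.13 without LPS and 1.52 ± 0.13 with it. Maff, a small Maf protein, rose at least 2.87-fold in wild type and by 2.20 ± 0.22 in the labelled knockout, and Mafg rose by 1.29 ± 0.17 in wild type. Between genotypes 1 was higher without LPS and 2 with it, and 0 were lower, although 2 and 4 had a negative value at an unadjusted p under 0.05. By limma the LPS effect differed between genotypes for 0 of the 12, and for 2 at an unadjusted p under 0.05. For Batf the difference was -0.40 ± 0.19 (adjusted p = 0.231), beside 2.15 ± 0.22 for Batf3.

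Other immediate-early response genes numbered 27, of which 16 were tested. In wild type LPS raised 7 and lowered 1, the zinc-finger gene Klf2, and in the labelled knockout it raised 5 and lowered 0. Dusp2, a phosphatase that inactivates MAP kinases, rose by 3.67 ± 0.19 and 2.76 ± 0.19, and under LPS it was lower in the labelled knockout, at -1.62 ± 0.19. Csrnp1, a nuclear protein induced by growth signals, rose by 2.57 ± 0.11 and 2.46 ± 0.11. Ier3, an early-response regulator of cell survival, rose by 1.61 ± 0.12 and 2.01 ± 0.12, and was higher in the labelled knockout by 2.52 ± 0.12 without LPS and 2.93 ± 0.12 with it. Gadd45b, a stress sensor upstream of p38 and JNK, rose by 1.56 ± 0.12 and 2.67 ± 0.12, effects that differed by 1.11 ± 0.17 (adjusted p = 0.00652). Between genotypes 6 were higher and 2 lower without LPS, and 4 higher and 1 lower with it. Egr3 was among those higher at either treatment, at least 2.16-fold without LPS and 1.42-fold with it. It passed the filter only through arrays labelled knockout, so these calls were in part a condition of its being tested.

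MAP kinases and the kinases above or below them numbered 23, of which 14 were tested. LPS raised 2 and lowered 1 in wild type and raised 3 and lowered 1 in the labelled knockout. Map3k8, the kinase Tpl2 that leads to ERK in macrophages, rose by 1.32 ± 0.13 and 2.42 ± 0.13, and the difference of 1.10 ± 0.19 passed the test (adjusted p = 0.0107). Map2k1, which encodes the ERK kinase MEK1, rose by 1.12 ± 0.25 and 1.56 ± 0.25. Map3k1, a kinase upstream of JNK, fell by 1.25 ± 0.13 and 1.57 ± 0.13. Mapkapk2, the p38-activated kinase, rose by 1.40 ± 0.11 in the labelled knockout. Between genotypes 1 was higher and 2 lower without LPS, and 2 higher and 1 lower with it. Of the 8 serum response and ternary complex factors and Egr corepressors 6 were tested. By limma 0 were called in any of the 5 comparisons, and at an unadjusted p under 0.05 there were 3 with LPS in wild type, 2 in the labelled knockout, 1 and 3 between genotypes without and with LPS, and 2 for the difference of the effects. Nab1, a corepressor of Egr proteins, was at 0.63 ± 0.13 with LPS in wild type (adjusted p = 0.00346).

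Textbook AP-1 target genes numbered 15, of which 14 were tested. LPS raised 5 and lowered 1 in either genotype, but Mmp3 rose only in the labelled knockout and Plau only in wild type. The LPS value of Plau was 1.09 in wild type and -0.96 in the labelled knockout, the latter short of 2-fold. In the labelled knockout 7 were higher and 0 lower without LPS, at a median of 1.04, and 9 were higher and 0 lower with LPS, at a median of 1.75, beside 0.00 and -0.03 over all genes. A further 3 had a negative value with LPS at an unadjusted p under 0.05, against 0 without LPS. With genes below background set at their bounds these medians were 0.93 and 1.37. Where only genes detected on all 8 arrays were tested, which is a smaller list, 5 were higher with LPS. In that setting 288 of all 6495 genes were higher and 216 lower. Plau, the urokinase protease, was higher in the labelled knockout by 4.48 ± 0.11 without LPS and 2.43 ± 0.11 with it. The collagenase gene Mmp13 was higher by 3.55 ± 0.12 and 2.32 ± 0.12. Il6, the cytokine, rose at least 3.18-fold with LPS in wild type and by 7.41 ± 0.18 in the labelled knockout, and under LPS it was higher there by 5.46 ± 0.18. Ccnd1, which encodes cyclin D1, changed with LPS by -3.46 ± 0.13 and -4.42 ± 0.13, the direction of Fos and Jun. The LPS effect differed upward for 3 of the 14 and downward for 2, Plau at -2.05 ± 0.15 and Mmp13 at -1.23 ± 0.18. These values stand beside those of Fos, Fosl2 and Batf3, and no link between factor and target was measured.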

How the data were processed

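The authors deposited, for each of the 8 arrays, a mean bead intensity per probe that was not normalized between arrays and a detection p-value per probe set against negative controls. The submitters' processing notes name GenomeStudio but no version. A second table deposited by the authors holds a processed intensity per probe with a median of 121 on each array, whose normalization the sources used here do not name. Columns of samples outside the series numbered 0.

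The deposited intensity was background-corrected with limma 3.58.1 (nec, offset 16) in R 4.3.3, quantile-normalized and taken to log2. Probes with a deposited detection p-value under 0.01 on at least 2 arrays were kept (14418), and of these 12542 had 1 gene symbol. The platform annotation listed 34903 probes, 34885 with 1 symbol and 18 with several, 10378 were unnamed here, and symbols of 34818 were matched to RefSeq. Each gene was read by its brightest kept probe, giving 8306 genes. A model of 4 group means with 5 contrasts was fitted to the 8 arrays (residual degrees of freedom 4, prior 4.57). The fit was tested on simulated data. Replicate numbers did not pair arrays: their deviations from group means correlated at -0.031 to 0.00842 in 6 pairs of groups. Alternatives changed the background correction, offset, normalization, filter, probe choice, table, test (treat at 1.5-fold), replicate block and arrays used.

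The members, gene lists and tests were chosen with earlier results of these data known. Named genes were every member, up to 4 called genes of each list with the largest change, the 3 nearest patterns of each called member, and Bcl6. Klf2, Nab1, Atf4 and the dendritic cell markers were named after their values were seen. RefSeq promoter windows matched 9 of the 9 genes looked up. The number of arrays limits the precision.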

Additional observations from a re-analysis of the deposited data

Results flagged for a closer look

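For 6 of the 9 genes tested, the effect of LPS differed between wild type and the arrays labelled knockout by limma's test of the difference itself, at an adjusted p under 0.05. The difference, labelled knockout minus wild type on the log2 scale, was -1.42 for Fos, 1.96 for Fosl2, 1.02 for Junb, 0.89 for Atf3, 2.15 for Batf3 and -1.04 for Egr1. All but Atf3 passed 2-fold as fitted, with wild-type arrays below background for Batf3 and Egr1. For Atf3 and Batf3 the fitted LPS effects had opposite signs in the genotypes, although both wild-type groups were below background for Batf3. Fos was the only one of these genes that fell in either genotype, and it fell further in the labelled knockout. Groups of 2 arrays were too small to look for a single outlying array.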

How the results depend on the processing

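The counts of members called were 5 and 7 for LPS in wild type and in the labelled knockout, 0 and 3 for the genotype difference without and with LPS, and 5 for the difference of the LPS effects. Leaving out 1 array gave 4 to 5, 7 to 7, 0 to 1, 3 to 3 and 4 to 6 in that order. Other settings gave 4 to 5, 5 to 7, 0 to 0, 2 to 3 and 2 to 5. For the difference of the LPS effects the count was 2 without background correction or from the authors' processed values, 3 with probes detected on all 8 arrays, where 7 members were tested, and 3 with a test against 1.5-fold. The count of 1 for the unstimulated genotype difference was Batf3 without replicate 1 of the labelled knockout. Of 881 recomputed values of members 847 kept their direction and call, 28 lost it, 3 gained it and 3 changed sign. The gains, each with 1 array left out, were Batf3 in the unstimulated genotype difference (1.08) and Jund (1.03) and Atf3 (1.02) in the difference of the LPS effects. The changes of sign were Jund in the unstimulated genotype difference, at -0.13 without wild type replicate 1 and -0.013 without labelled-knockout replicate 2, in a range of -0.13 to 0.37 with 1 array left out, and Jun in the difference of the LPS effects, at -0.066 with median scaling. With the replicate block the counts of members were 5, 7, 0, 3 and 5, and no call of a member changed. Over all genes it gave 1165, 1233, 706, 927 and 316 calls, beside 1165, 1233, 706, 927 and 318. Without background correction those were 635, 642, 326, 411 and 121, from the authors' values 637, 652, 338, 418 and 119, and with 6495 genes detected on all arrays 775, 786, 396, 504 and 153. For the difference of the LPS effects, an offset of 50 gave 196 and the test against 1.5-fold 81. Of 990 recomputed list counts 79 moved by over 1.5 times, and of 630 values of named list genes 15 lost their call and 0 changed sign. The causes were not tested. Probes near background, those of Batf3 and Egr1 among them, limit what can be read as a fold.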

Other observations

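Targets of the integrated stress response, the pathway in which Atf3 acts downstream of Atf4, numbered 12, of which 10 were tested. LPS raised 5 and lowered 0 in wild type and raised 3 and lowered 0 in the labelled knockout. Slc7a11, the cystine transporter, rose by 3.33 ± 0.12 and 3.62 ± 0.12, and Ppp1r15a, the phosphatase subunit that reverses the response, by 2.08 ± 0.12 and 2.57 ± 0.12. Chac1, an enzyme that degrades glutathione, rose by 2.17 ± 0.13 in wild type, and its LPS effect differed between genotypes by -1.40 ± 0.18, with limma's adjusted p = 0.00318. Phgdh, of serine synthesis, rose by 1.66 ± 0.11 in wild type. Chac1 and Phgdh were higher in the unstimulated labelled knockout, by 1.19 ± 0.13 and 1.17 ± 0.11. Atf4 itself changed by 0.17 ± 0.10 and 0.14 ± 0.10 with LPS, with limma's adjusted p = 0.18 and 0.274.

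Of the C/EBP family and Nfil3, another branch of leucine-zipper factors, 6 of 7 were tested. Cebpb, the member linked to inflammatory activation, rose by 1.20 ± 0.11 with LPS in the labelled knockout, and Cebpa, a factor of myeloid differentiation, was at least 1.44-fold lower there. Cebpe, known from granulocyte maturation, was at least 1.64-fold lower in the unstimulated labelled knockout, where the granulocyte markers were also lower. Cebpe passed the filter only through wild-type arrays, so this difference was in part a condition of its being tested. Of 11 heat-shock genes 8 were tested, and 2 calls were made. Hsph1, a co-chaperone, fell by 1.31 ± 0.12 with LPS in the labelled knockout, and Hspe1, of mitochondria, was higher by 1.08 ± 0.14 there than in wild type under LPS. Among the remaining markers of other cells, 7 of 8 fibroblast genes and 7 of 8 mast cell and basophil genes were on no array above background. Kit was at least 1.62-fold lower in the unstimulated labelled knockout, where it was below background. Kit, too, passed the filter only through wild-type arrays. Of 5 B cell markers on the array 2 were tested and 0 called by limma in any comparison, with 1 at an unadjusted p under 0.05 between genotypes at either treatment.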
